A study of Mus musculus with 10 samples.

Results

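Macrophages, lymphocytes, neutrophils, endothelium, fibroblasts, smooth muscle and mesothelium share the lung with the epithelial cells that were sorted here, and the levels of their marker genes are described here per library. Whether the RNA of a marker came from such cells or from the sorted cells themselves was not tested. The markers were a list of 43 gene names, 12 of macrophages, 6 of lymphocytes, 3 of neutrophils, 9 of endothelium, 9 of fibroblasts, 2 of smooth muscle and 2 of mesothelium. Of these, 34 had a row among the 16154 genes of the table, and 9 had none and are not analysed here. The 9 are the macrophage gene C1qb, the lymphocyte genes Cd2, Nkg7 and Cd79a, all 3 neutrophil genes (S100a8, S100a9 and Csf3r), and the endothelial genes Cldn5 and Ramp2. No value of the libraries was used to choose the 43, although earlier results of these data were known.

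RNA was measured by sequencing polyA libraries of alveolar type II (AT2) cells, which make the surfactant that coats the alveolus, sorted from lungs of C57BL/6 mice aged 8 to 10 weeks. There were 5 libraries labelled wild type (WT, replicates 2 to 6) and 5 labelled HOIL-1L -/- (KO, replicates 1 to 5). The design text describes the second group as CreSPC/HOIL-1Lfl/fl, a floxed allele cut by Cre under the surfactant protein C promoter, which is active in AT2 cells. HOIL-1L, the product of Rbck1, is a subunit of the linear ubiquitin ligase LUBAC. All groups share the strain, the tissue and the sort, and the gate of the sort is not given in the sources used here. No 2 titles share a mouse number, and each library was treated as 1 mouse. The numbers form 2 stretches, called runs here, the first with WT 2 and 3 and KO 1 to 3 and the second with WT 4 to 6 and KO 4 and 5. The labels do not call them batches.

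Values are the deposited normalized counts divided by 1 constant, given as counts per M (M for mega). Behind them lie roughly 7.7 to 13.1 M reads a library, so that 1 per M rests on about 7.9 to 13.4 reads and 3 reads amount to 0.224 to 0.381 per M. Rbck1 stood at 56.1 to 57.8 per M in WT 3 to 6 and at 29.8 to 38.8 in KO 2 to 5. The library labelled WT 2 (29.7) and the library labelled KO 1 (59.3) went against their labels. The main results by genotype are therefore given with and without these 2. Fits by genotype within the first run, or with run, sex or replicate number in the model, were made only with both, as labelled. The libraries labelled WT 2, KO 2 and KO 3 held Xist at 39.0 to 89.1 per M, as female cells do, and the other 7 at 1.44 to 3.16. Without WT 2 and KO 1 the only libraries left with high Xist are KO 2 and KO 3. Label and sex are therefore partly confounded in every result that leaves out only WT 2 and KO 1.

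Alveolar macrophages live on the surface of the alveolus beside AT2 cells, take up spent surfactant, and carry the integrin CD11c (Itgax), the mannose receptor (Mrc1) and the secreted chitinase-like protein Ym1 (Chil3). Endothelium lines the capillaries behind the epithelium and is held together by VE-cadherin (Cdh5) and PECAM-1 (Pecam1). Fibroblasts and smooth muscle make collagen and contractile fibres, and the mesothelium covers the lung surface. A sort for AT2 cells aims to leave all of them out, and in bulk RNA fewer cells of a type and less RNA per cell cannot be told apart.

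Chil3, Mrc1 and Itgax carried the main result, and the bases before their starts are printed because the 3 genes moved together. Each sequence holds the 250 bases before the RefSeq start (GRCm38.p6, which has the coordinates of mm10), 5′ to 3′ on the gene's strand. The Chil3 window is chr3:106167565-106167814 (minus strand), that of Itgax chr7:128129300-128129549 (plus) and that of Mrc1 chr2:14229164-14229413 (plus). Capitals mark the letters GAGGAA, the purine-rich core that the myeloid factor PU.1 can bind, or the same on the other strand, TTCCTC.
Chil3: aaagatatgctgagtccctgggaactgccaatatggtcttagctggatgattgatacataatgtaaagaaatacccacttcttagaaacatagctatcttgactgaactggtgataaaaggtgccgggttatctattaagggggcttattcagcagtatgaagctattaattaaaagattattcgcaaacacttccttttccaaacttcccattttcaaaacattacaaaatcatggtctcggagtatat
Itgax: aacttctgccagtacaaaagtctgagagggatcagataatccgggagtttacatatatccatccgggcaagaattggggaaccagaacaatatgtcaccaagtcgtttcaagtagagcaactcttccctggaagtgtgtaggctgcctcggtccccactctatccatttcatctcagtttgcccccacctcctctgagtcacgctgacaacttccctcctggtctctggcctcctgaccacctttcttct
Mrc1: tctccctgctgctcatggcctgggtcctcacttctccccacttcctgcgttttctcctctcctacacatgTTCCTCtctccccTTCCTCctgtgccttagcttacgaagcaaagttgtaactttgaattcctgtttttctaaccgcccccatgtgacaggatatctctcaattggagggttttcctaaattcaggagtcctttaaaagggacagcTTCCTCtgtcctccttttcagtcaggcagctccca
The letters occurred 3 times before Mrc1, all on the opposite strand and not overlapping, and in neither of the other two windows. Of 32851 windows of this length in the RefSeq table, 23.3% held them on either strand. A match is a description of these letters and says nothing about binding. Promoters were found for 21 of the 34 markers.

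The defining genes of AT2 cells were at high levels. Sftpb, a surfactant protein, stood at a mean of 10760 per M and per kb of exon, and the 14 AT2 markers had a median of 952 on that scale. The epithelial adhesion genes Cdh1 and Epcam stood at 198 and 107. All 34 markers of other lineages together took 0.0330% to 0.0448% of the counts of a library, and without Gsn and Cd14, chosen after their values were seen, 0.00733% to 0.0142%. The median of the 34 was 0.273 per M and per kb, against 2.93 over the 16034 genes with a known exon length. Only 5 of the 34 lay above that median of all genes, and these were Gsn, Cd14, Chil3, Cd68 and Mpeg1.

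**Figure D1:**
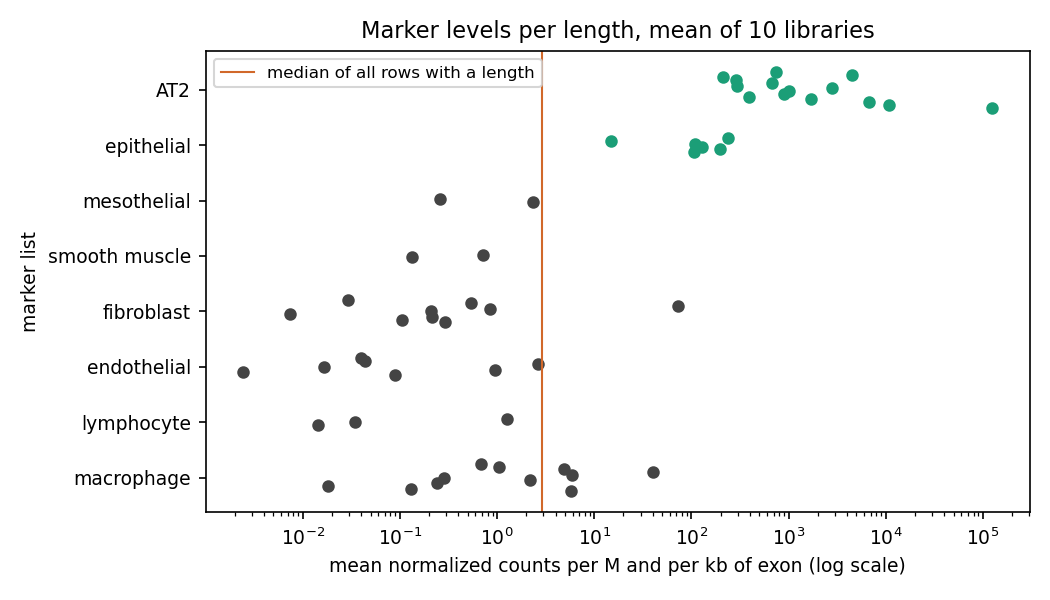
Mean level of each marker over the 10 libraries, in normalized counts per M and per kb of exon on a log axis, by marker list; each point is a gene and the line is the median of all genes with a length (2.93). The AT2 and epithelial genes lie to the right of the line, and 29 of the 34 markers of other lineages to its left.

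Macrophage markers behaved unlike one another between the runs. Chil3, Mrc1 and Itgax were lower in the second run than in the first, with means 8.46, 6.81 and 15.5 times higher in the first, while Csf1r, Mpeg1, Cd14 and Cd68 overlapped between the runs. Chil3 (mm10 chromosome 3, 106147554 to 106167564, protein coding, ENSMUSG00000040809) stood at 13.8, 22.6, 12.9, 20.3 and 15.8 per M in WT 2, WT 3, KO 1, KO 2 and KO 3. In WT 4, WT 5, WT 6, KO 4 and KO 5 it stood at 1.46, 2.75, 2.995, 2.10 and 0.799. Every library of the first run lay above every library of the second, with WT and KO mixed in both. The means were 17.1 ± 4.19 and 2.02 ± 0.909 per M (SD, n = 5 each). Chil3 has a close paralog, Chil4, so reads may be shared between them.

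Itgax (chromosome 7, 128129547 to 128150657, ENSMUSG00000030789) stood at 2.67, 2.52, 1.29, 2.68 and 1.76 per M in the first run, in the same order of libraries. In the second it stood at 0, 0.257, 0.365, 0.0829 and 0, which rests on about 0 to 5 reads a library. The runs did not overlap, and the means were 2.18 ± 0.626 and 0.141 ± 0.163 (SD, n = 5 each). Mrc1 (chromosome 2, 14229392 to 14332057, ENSMUSG00000026712) stood at 2.16, 3.38, 2.33, 3.76 and 4.37 in the first run and at 0.110, 0.784, 0.961, 0 and 0.495 in the second. Again every library of the first run was higher, with means of 3.20 ± 0.942 and 0.470 ± 0.416 (SD, n = 5 each).

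The difference between the runs was tested across all genes with limma, with the genotype label in the model. Log2 fold changes (second minus first run, on the log2 scale with a pseudocount) were -2.93 ± 0.23 for Chil3 (adjusted p = 2.37e-06), -2.14 ± 0.28 for Itgax (adjusted p = 0.000891) and -2.04 ± 0.32 for Mrc1 (adjusted p = 0.00562), each with its SE. Of 12946 genes tested, 0.309% were lower in the second run and 0.317% higher. Among the 17 markers tested 3 were lower and 0 higher. Itgax and Mrc1 reached the filter on low values (1 per M in 5 libraries) through the 5 libraries of the first run alone, so their count after the filter is no support. Without the filter, over 15908 genes of which 0.245% were lower, the limma adjusted p were 6.32e-05 for Chil3, 0.000229 for Itgax and 0.0101 for Mrc1. There 4 of the 34 markers were lower and 0 higher (0.107% of all genes were higher), the fourth being Tyrobp.

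Without the filter, Chil3 and Itgax passed when any 1 library was left out, with limma adjusted p up to 0.00799 and 0.00936. They also passed without both WT 2 and KO 1 (0.00793 and 0.0145). Mrc1 passed in 6 of the 10 fits with 1 library left out. It did not pass without WT 2, WT 3, KO 2 or KO 4, with limma adjusted p = 0.0698, 0.124, 0.0845 and 0.0758, or without both WT 2 and KO 1 (0.116). The females were all in the first run. With sex as a covariate and no filter Chil3 (limma adjusted p = 0.00215) and Itgax (0.0128) passed and Mrc1 did not (0.105). The male libraries of the first run, WT 3 and KO 1, stood at 22.6 and 12.9 per M for Chil3 against 0.799 to 2.995 in the 5 libraries of the second run, all male. What differed between the runs apart from the mouse numbers is not given in the labels and was not tested.

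**Figure D2:**
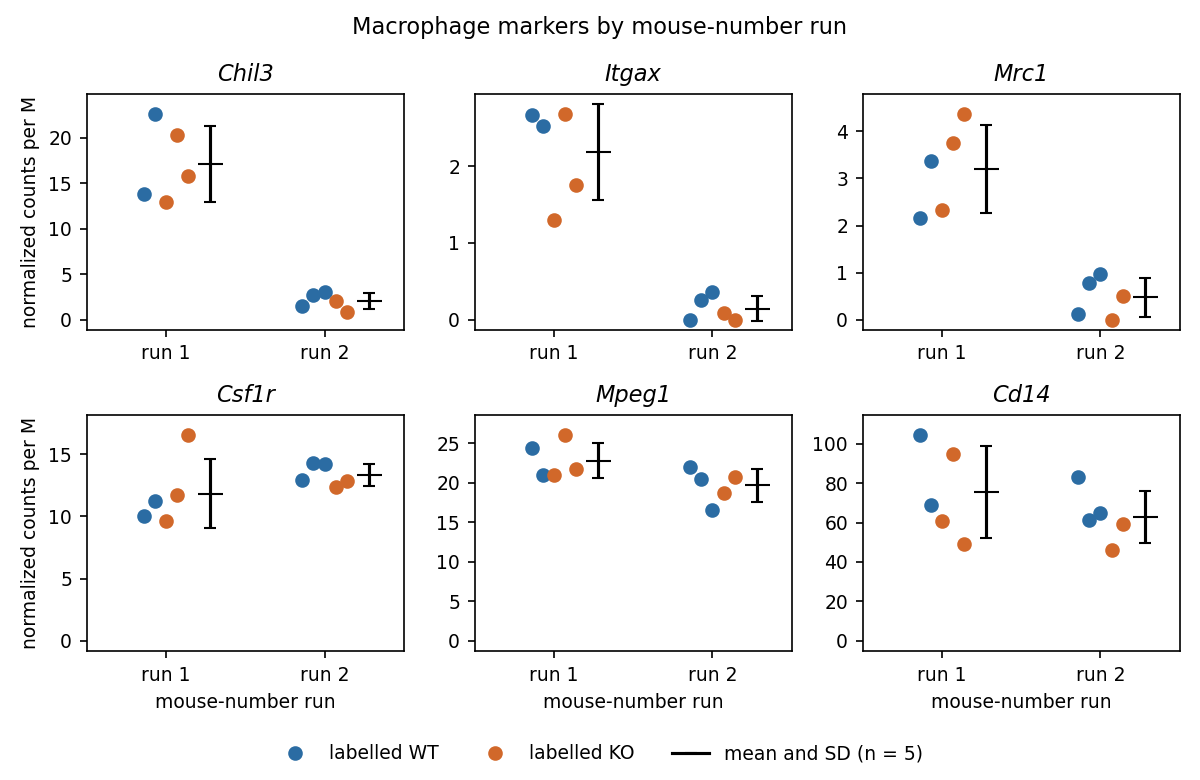
Normalized counts per M of 6 macrophage markers in the first and second run, each point a library colored by its genotype label, with the mean and SD of 5 libraries beside them. Chil3, Itgax and Mrc1 do not overlap between the runs (Chil3 12.9 to 22.6 against 0.799 to 2.995), whereas Csf1r, Mpeg1 and Cd14 do.

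A further 3 macrophage genes lay below the filter and showed the same order. Tyrobp encodes DAP12, a signalling adaptor of myeloid receptors, and stood at 0.797 to 1.69 per M in the first run and 0.0780 to 0.521 in the second. Fcer1g, the Fc receptor gamma chain, stood at 0.685 to 1.28 and 0 to 0.389, and Adgre1, which encodes F4/80, at 0.463 to 1.06 and 0 to 0.293. None of the 3 overlapped between the runs, on about 15 reads or fewer in any library. Thus 6 of the 11 macrophage genes with a row had no overlap with the first run higher, as did 1.31% of all 16154 rows. For none of the 11 was every library of the second run higher (1.29% of all rows). Without the filter Tyrobp was lower in the second run (limma adjusted p = 0.0432, log2 fold change -1.16). It passed in 1 of the 10 fits with 1 library left out, where the limma adjusted p ran from 0.0475 to 0.182 and only the fit without WT 5 was under the threshold, whereas Fcer1g and Adgre1 did not pass (0.0546 and 0.0609). Summed over the 6 genes, levels were 19.6 to 31.7 per M in the first run and 1.76 to 4.85 in the second. This set was made after the values were seen, from the genes without overlap, so its sum could not overlap and is no support. The other 5 macrophage genes summed to 96.2 to 149.0 per M in the first run and 84.8 to 123.9 in the second.

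The remaining macrophage genes did not separate the runs. Csf1r, the receptor of the macrophage growth factor CSF1, stood at 9.67 to 16.5 per M in the first run and 12.3 to 14.3 in the second (log2 fold change 0.20, 95% interval -0.09 to 0.48). Mpeg1, which encodes the pore-forming perforin-2, stood at 20.9 to 26.0 and 16.5 to 22.0 (-0.21, interval -0.42 to 0.01). Cd14, a co-receptor for bacterial lipopolysaccharide, stood at 49.0 to 104 and 46.0 to 83.1 (-0.31, interval -0.64 to 0.01). Cd68, a lysosomal glycoprotein, stood at 4.76 to 11.6 and 3.54 to 7.77 (-0.39, interval -0.86 to 0.08). Itgam (CD11b) rested on about 0 to 3 reads in every library, from 0 to 0.365 per M.

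Markers of leukocytes outside the 43 were counted from lists chosen with earlier results known. Of 12 genes shared by leukocytes 6 were tested between the runs, and 2 were lower in the second, where 0.309% of all genes were. These were Laptm5, a lysosomal membrane protein, with means of 7.64 ± 3.04 and 1.02 ± 0.572 per M (SD, n = 5 each), and Itgb2, the beta-2 integrin chain that pairs with CD11c, at 3.42 ± 0.536 and 0.380 ± 0.240. Itgb2 reached the filter through the first run alone, so its count is no support, and without the filter its limma adjusted p was 6.32e-05. Of 20 other macrophage genes 13 had a row and 3 were tested, and 2 were lower (0.309% of all genes), the protease gene Ctss (log2 fold change -2.04) and the eosinophil-associated ribonuclease gene Ear2 (-1.89), which has near-identical copies and also reached the filter through the first run alone (limma adjusted p = 0.00146 without the filter). Without the filter 4 of the 12 leukocyte genes and 2 of the 13 other macrophage genes were lower and 0 higher (0.245% and 0.107% of all genes). Every library of the first run lay above every library of the second for 7 of the 12 and 3 of the 13 (1.31% of all rows). Lcp1 (L-plastin) at 387.9 ± 18.1 per M and Ptpn6 at 20.6 ± 2.97 (SD, n = 10) were the leukocyte genes highest per length, and neither passed between the runs.

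Ptprc, the gene of the pan-leukocyte surface protein CD45, stood at 2.61 and 2.11 per M in WT 2 and WT 3. In KO 1 to 3 it stood at 0.377 to 0.877 and in the second run at 0.109 to 0.281. Within the first run the libraries labelled WT 2 and WT 3 therefore stood above the other 3. It was below the filter, and without the filter it was lower in the second run (limma adjusted p = 0.0458). It passed in 1 of the 10 fits with 1 library left out, that without KO 1, with limma adjusted p from 0.0259 to 0.243.

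Lymphocyte markers were near 0 apart from the immunoglobulin heavy chain gene Ighm. Cd3e and Cd3g, chains of the T cell receptor complex, were listed at 0 in 6 and 7 of the 10 libraries and reached 0.297 (WT 3) and 0.725 per M (WT 2), on about 3 and 7 reads. Ighm stood at 6.23 per M in WT 2, 2.23 in WT 3, 10.2 in KO 2 and 4.27 in KO 5, at 0.396 and 0.574 in KO 4 and KO 3, and at 0 in the other 4. Both groups and both runs held libraries with and without it. Igkc, the kappa light chain constant region, was highest in 3 of these, at 20.5 (WT 2), 14.1 (KO 2) and 7.35 per M (KO 5), and at 0 in KO 1. Cd79b, a B cell receptor chain, did not follow them, at 16.4 to 25.2 per M in every library. None of the 3 lymphocyte members with a row reached the filter.

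**Figure D3:**
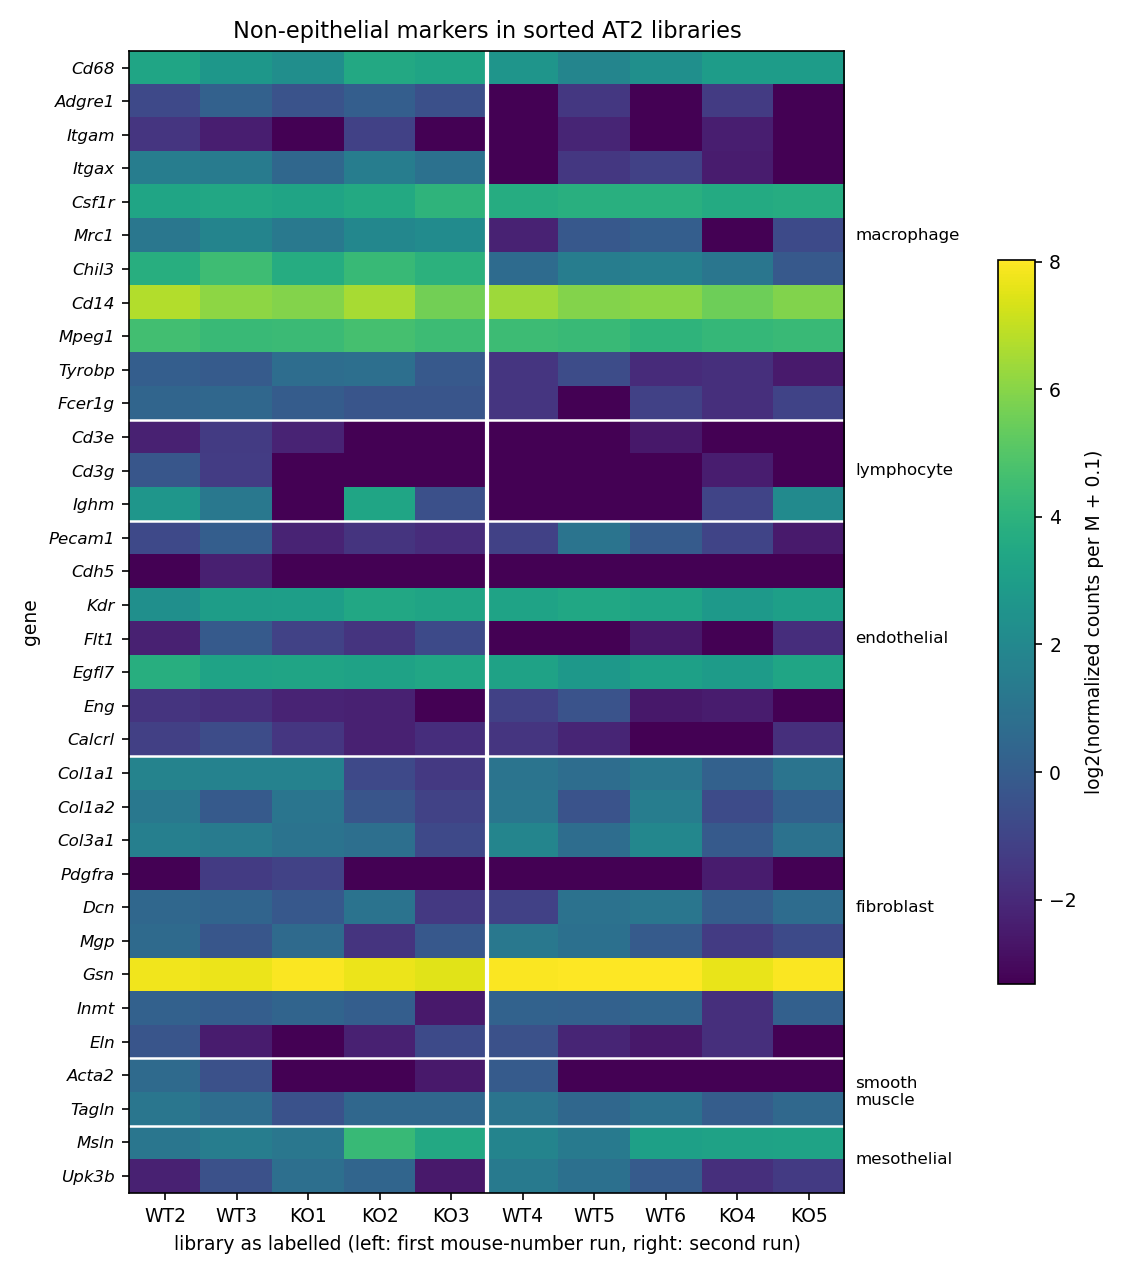
Level of the 34 markers with a row in each library, as log2(normalized counts per M + 0.1), in rows grouped by lineage, with the first run left and the second right of the white line. Chil3, Mrc1, Itgax, Tyrobp, Fcer1g and Adgre1 are darker on the right, Ighm is high in WT 2, KO 2 and KO 5, and Gsn and Cd14 are bright in all 10 libraries.

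Of the 7 endothelial markers with a row, Kdr and Egfl7 were well above 1 per M in every library and the other 5 were low. Cdh5, which encodes VE-cadherin, was listed at 0 in 9 libraries and at 0.103 per M, about 1 read, in WT 3. Pecam1 stood at 0.355 to 1.97 per M in WT and at 0.0765 to 0.399 in KO, and only KO 4 lay above the lowest WT library, on about 1 to 16 reads. It was under the filter, and without the filter its log2 fold change (KO minus WT) was -0.93 ± 0.26 (SE, limma adjusted p = 0.399), with the smallest unadjusted p of the 34 markers by label. Without WT 2 and KO 1 it was -1.01 ± 0.30 (SE, limma adjusted p = 0.301). The VEGF receptor gene Flt1 ranged from 0 to 0.837, the adrenomedullin receptor gene Calcrl from 0 to 0.528 and endoglin (Eng) from 0 to 0.651. Kdr, the VEGF receptor VEGFR2, stood at 4.88 to 11.3 per M and Egfl7, a secreted angiogenic factor, at 6.57 to 14.0. Per kb of exon Kdr stood at 0.964 per M and Cdh5 at 0.00245. No endothelial marker passed between the runs or between the groups, with 2 of 7 tested. Of 20 further endothelial genes, 11 had a row, 2 were tested and 0 passed in either comparison. These 2, Esam, a junctional adhesion molecule, and Tek, an angiopoietin receptor, stood at 129.6 ± 14.0 and 2.33 ± 0.613 per M (SD, n = 10).

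Fibroblast and smooth muscle markers were low except for gelsolin. Gsn, an actin-severing protein made by many cell types, stood at 185 to 262 per M and at 72.8 per M and per kb, the highest of the 34 on both scales. The fibrillar collagen genes Col1a1, Col1a2 and Col3a1 stood at means of 1.91, 1.31 and 2.09 per M, with every single value under 4. Decorin (Dcn) ranged from 0.271 to 2.12 per M, matrix Gla protein (Mgp) from 0.223 to 2.21 and the methyltransferase gene Inmt from 0.0723 to 1.16. Pdgfra, a growth factor receptor that marks fibroblasts, was listed at 0 in 7 libraries, and elastin (Eln) lay at or below 0.708. Of the contractile genes, Acta2 (smooth muscle actin) stood at 1.41, 0.613 and 0.844 per M in WT 2, 3 and 4 and at or below 0.0707 elsewhere, and Tagln (SM22) at 0.635 to 2.13.

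Between the genotype labels, with all 10 libraries, no marker passed. Of 12946 genes tested 0 did so with limma (0% of all genes), of which 1227 had an unadjusted p under 0.05, and the smallest adjusted p was 0.269. None of the 34 markers had every KO library above every WT library (0.805% of all rows) or the reverse (0.582%). All 7 tested fibroblast and smooth muscle markers had log2 fold changes (KO minus WT) below 0, with a median of -0.54, where the median of all genes was 0.005 and 51.3% lay above 0. Without WT 2 and KO 1 all 7 were again below 0, with a median of -0.69, and 0 passed. The 4 untested ones lay under the filter. Of 4 tested genes in the list of 18 further fibroblast genes, 2 were above and 2 below 0 (median -0.0887). Without WT 2 and KO 1 these were again 2 and 2 (median -0.0185). Without the filter, 3 of the 16 with a row were above 0 and 13 below. Low genes of the other lists leaned the same way. Of all 84 further non-epithelial genes with a row, these 16 included, 23 were above 0 and 61 below without the filter. Of 3 tested further smooth muscle and pericyte genes, 1 was above and 2 below 0, and without WT 2 and KO 1 2 and 1. None of these passed. Col3a1 stood at 2.85, 2.54, 3.54, 1.57 and 3.68 per M in WT 2 to 6 and at 1.93, 1.66, 0.475, 0.823 and 1.84 in KO 1 to 5. The KO libraries were lower except that WT 5 fell among them, and the log2 fold change was -0.90 ± 0.28 (SE, limma adjusted p = 0.359), and without WT 2 and KO 1 it was -1.01 ± 0.32 (SE, 0.200). Col1a1 stood at 1.57 to 3.32 per M in WT and at 0.274 to 1.95 in KO 2 to 5, with KO 1 at 3.22 (log2 fold change -0.83 ± 0.36 SE, adjusted p = 0.503), and without WT 2 and KO 1 the log2 fold change was -1.03 ± 0.35 (SE, limma adjusted p = 0.226). Within the first run its log2 fold change was -1.42 and within the second -0.29, both not passing, while Col3a1 had -0.89 in each. These collagen values rest on about 3 to 49 reads a library.

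Msln, which encodes the mesothelial surface protein mesothelin, had the largest log2 fold change by genotype label of the 17 markers tested. The gene (ENSMUSG00000063011, protein coding) occupies bases 25748613 to 25754378 of mm10 chromosome 17 on the minus strand. It stood at 2.13, 2.75, 3.42, 2.49 and 8.68 per M in WT 2 to 6 and at 2.18, 20, 11.6, 9.34 and 9.43 in KO 1 to 5. KO 2 to 5 were thus above all WT libraries, KO 1 lay at the low WT level, and WT 6 came close to KO 4. The library labelled WT 2 was the lowest of all (2.13), although its Rbck1 also went against its label and its Xist was as in female cells. Msln therefore did not follow Rbck1 in both of these libraries. With all libraries the log2 fold change was 1.23 ± 0.42 (SE) and did not pass (limma adjusted p = 0.371). Without WT 2 and KO 1 the means were 4.33 ± 2.92 and 12.6 ± 5.05 per M (SD, n = 4 each), and Msln was higher in KO (log2 fold change 1.53 ± 0.30 SE, limma adjusted p = 0.0327). In that comparison 0.286% of all genes were higher and 0.116% lower, and Msln was the 1 marker of 17 that passed. Without the filter on low values it did not pass in these 8 libraries (limma adjusted p = 0.269). KO 2 and KO 3, the highest for Msln, are the only ones of the 8 with Xist as in female cells. Label and sex are thus partly confounded there. The labelled groups of the first run differed by a log2 fold change of 1.58 (limma adjusted p = 0.464) and those of the second by 1.06 (0.327).

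The other mesothelial genes did not move with Msln. Upk3b, a uroplakin of the mesothelial surface, stood at 0.0711 to 2.46 per M and was highest in WT 4, where Msln was low. Of 8 further mesothelial genes 6 had a row, and their summed level was 1.37 to 7.25 per M in WT and 0.654 to 2.72 in KO. Wt1, a transcription factor that defines mesothelium, named after its values were seen, was at most 0.112 per M, and the 1 gene tested, Gpm6a, did not pass in either direction.

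Cd68 overlapped between the labelled groups. It stood at 10.0, 6.29, 5.88, 3.54 and 4.96 per M in WT 2 to 6 and at 4.76, 11.6, 9.81, 7.64 and 7.77 in KO 1 to 5. The library labelled WT 2 lay among KO 2 to 5, and the library labelled KO 1 among WT 3 to 6. The highest values, in KO 2, WT 2 and KO 3, were those of the libraries with Xist as in female cells. Across both runs label and sex were thus only partly separated for Cd68. In the second run, all male by Xist, the KO libraries (7.64 and 7.77 per M) lay above the WT libraries (3.54 to 5.88). The log2 fold change of Cd68 within that run was 0.66 and did not pass (limma adjusted p = 0.375). Within the first run, which held both sexes, it was 0.04 (limma adjusted p = 0.978). Whether label or sex set the level of Cd68 was not tested further. With all libraries as labelled the log2 fold change was 0.43 ± 0.24 (SE, limma adjusted p = 0.588). With sex in the model it was 0.28 (limma adjusted p = 0.602). Without WT 2 and KO 1 it was 0.78 ± 0.19 (SE) and did not pass (limma adjusted p = 0.0842, and 0.293 without the filter). Msln and Cd68 were the 2 of 34 markers for which every KO library lay above every WT library in those 8, as did 3.29% of all rows. No marker had every WT library above every KO library (2.53% of all rows).

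The macrophage genes lower in the second run overlapped between the genotype labels. Chil3 had means of 8.73 ± 9.22 per M in WT and 10.4 ± 8.58 in KO (SD, n = 5 each), and its log2 fold change was 0.21 with a 95% interval from -1.35 to 1.77. Without WT 2 and KO 1 it was 0.29 ± 0.77 (SE, limma adjusted p = 0.904). With the run in the model the log2 fold change was -0.38 (limma adjusted p = 0.505). Within the first run it was -0.14 and within the second -0.62, with adjusted p = 0.884 and 0.617.

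**Figure D4:**
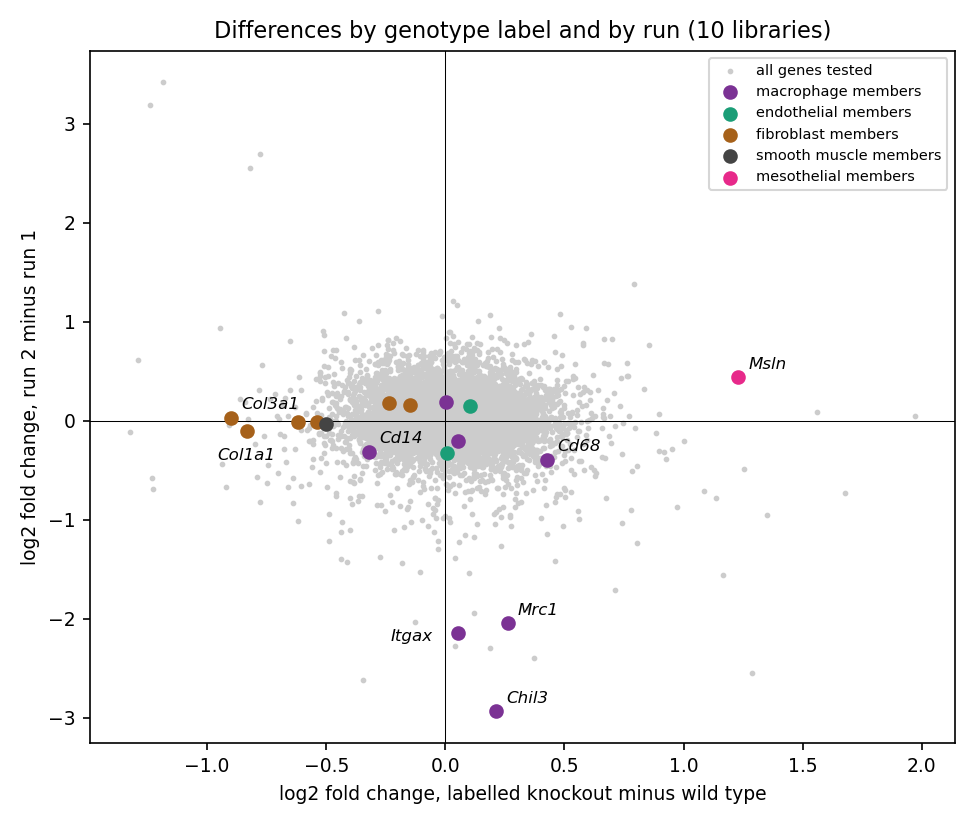
Log2 fold change by genotype label (x axis, KO minus WT) against that by run (y axis, second minus first run, with the label in the model) for all 12946 genes tested in grey and the 17 tested markers in color. Chil3, Itgax and Mrc1 lie near 0 on the x axis and between -2.93 and -2.04 on the y axis, and Msln lies at 1.23 on the x axis.

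**Figure D5:**
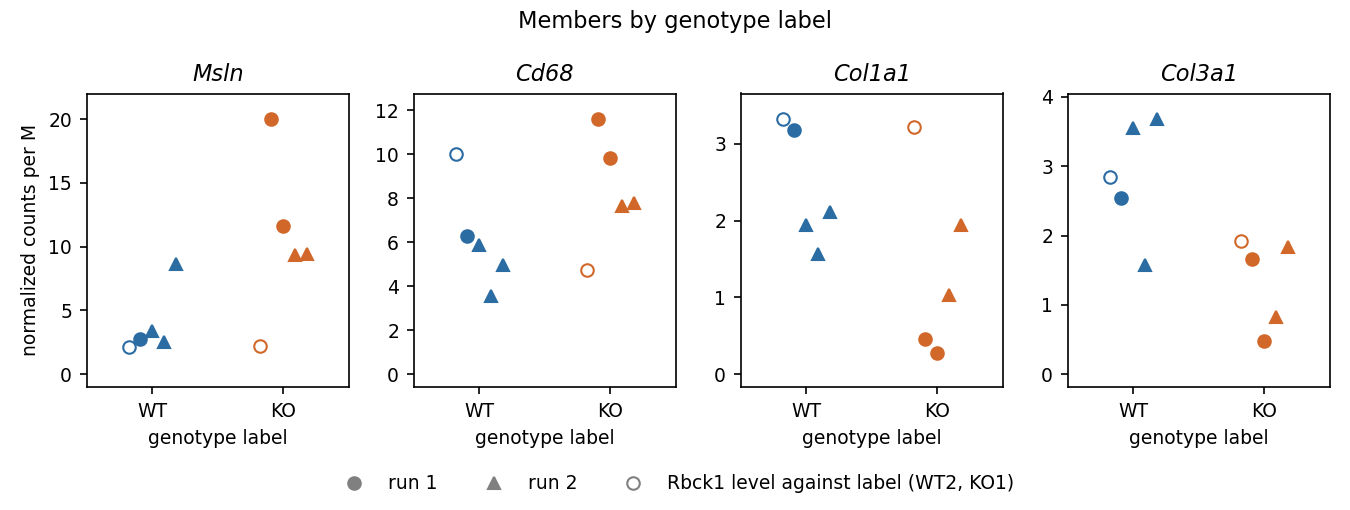
Normalized counts per M of Msln, Cd68, Col1a1 and Col3a1 by genotype label, each point a library, circles for the first and triangles for the second run; open circles are WT 2 and KO 1, whose Rbck1 level goes against the label. Msln in KO 2 to 5 (9.34 to 20) lies above all WT libraries, and the open circles of Cd68 lie with the other group. For Msln the open circle of KO 1 lies at the low WT level, but that of WT 2 is the lowest of all (2.13). The highest Cd68 values are those of KO 2, WT 2 and KO 3, the libraries with high Xist.

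Among the lists of other cell types, genes passed between the runs in both directions. Of 8 genes of ciliated airway cells 3 were higher in the second run (Foxj1, Tppp3 and Rsph1, with log2 fold changes of 0.61, 0.44 and 0.65) and 0 lower, where 0.317% of all genes were higher. Without the filter 1 of the 3, Foxj1, passed. The summed level of the list was 673 to 937 per M in the first run and 857 to 1086 in the second. Of 18 further fibroblast genes 16 had a row and 4 were tested, and 1 was lower in the second run (0.309% of all genes). This was Vim, which encodes vimentin, the intermediate filament of mesenchymal cells and leukocytes, at 6.77 ± 1.51 and 2.40 ± 0.741 per M (SD, n = 5 each). Sparc, the highest of that list per length, did not pass (limma adjusted p = 0.0722). None of the 14 AT2 genes passed in either direction between the runs. Their part in the difference of the macrophage genes was not tested.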

How the data were processed

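The markers, the marker lists and the tests were chosen with earlier results of these data known. RNA of sorted AT2 cells was measured in 10 libraries. The authors deposited 1 table of normalized counts, a signal that is never negative and is not whole. Per the submitters' processing notes, bcl2fastq 2.17, edgeR 3.14.0 and mm10 were used; no source used here gives the aligner, annotation, strand or exact normalization. Low values clustered near multiples of a step without being whole, so no count test was run, and depth was estimated as the column total (6.94 to 7.43 M) over the median of the lowest cluster. Values were divided by 7.14 M. Symbols and exon lengths (GENCODE M21, mm10) were found for 16034 of 16154 IDs.

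Genes reaching 1 per M in 5 or more libraries were tested with limma-trend (limma 3.58.1, R 4.3.3) on log2(value + 0.5), two-sided, Benjamini-Hochberg over all genes, threshold 0.05: KO minus WT without covariates, and second minus first run with the genotype label as a covariate. Such fold changes understate those of low genes. All markers are named; from the other lists, genes that passed, the 2 highest per kb, and Ptprc, Epcam, Cdh1, Sftpc and Sftpb; any other gene named was chosen after its values were seen. Alternatives were pseudocounts 0.1 and 2, TMM factors (computed from their published formula), a filter of 5 per M or none, run, sex or replicate number in the model, and leaving out libraries. The fits were tested on simulated data, with changes set only in genes of higher mean level than Itgax and Mrc1. That test therefore does not cover changes in genes as low as these. Tables and plots used pandas 2.3.3, numpy 2.4.6 and matplotlib 3.10.9 under Python 3.11.15. Whether libraries are separate mice rests on the mouse numbers in the titles.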

Additional observations from a re-analysis of the deposited data

Results flagged for a closer look

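Of 36 checks of a gene in a group of 5 libraries (18 genes in the labelled WT and KO groups), 2 found a library far from the others, where chance gives about 1 in 20. Msln stood at 8.68 per M in WT 6 and at 2.13 to 3.42 in the other 4 WT libraries, a gap of 0.803 of the range. Rbck1 stood at 29.7 per M in the library labelled WT 2 and at 56.1 to 57.8 in the other 4, a gap of 0.940 of the range.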

How the results depend on the processing

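By genotype label 0 genes passed with all 10 libraries. With the run in the model 1 gene passed, without both WT 2 and KO 1 52, and leaving out 1 library at a time 0 to 4, with 4 without KO 1. Rbck1 passed without both (log2 fold change -0.67, limma adjusted p = 0.00167). Both were left out for their Rbck1 values, so this pass was set by the choice and is no support. Between the runs 81 genes passed, against 50 without the label in the model, 51 with a filter of 5 per M, 28 without both libraries, 44 with sex in the model, and 18 (without WT 2) to 139 (without KO 1) when 1 was left out. Mrc1 had -1.91 between the runs with sex in the model and no longer passed, and Cd68 changed sign there (0.0907). Per kb of exon the mean summed level was 61.0 in place of 124.6 for macrophage markers, 3.81 in place of 19.4 for endothelial and 75.1 in place of 238.7 for fibroblast markers, since each gene is divided by its length.

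By label, markers that did not pass changed sign as follows. With the run in the model log2 fold changes were -0.38 for Itgax, -0.15 for Mrc1, -0.38 for Chil3 and -0.0601 for Egfl7. With sex in the model they were -0.29, -0.0515, -0.20 and -0.0650 for the same genes. With TMM factors Csf1r had -0.0034 and Egfl7 -0.0019, and without both libraries Kdr had -0.0418. Leaving out 1 library gave -0.19 to 0.81 for Chil3, -0.28 to 0.40 for Itgax, -0.10 to 0.75 for Mrc1, -0.0953 to 0.0907 for Csf1r, -0.11 to 0.15 for Egfl7, -0.0704 to 0.19 for Kdr and -0.0262 to 0.11 for Mpeg1. The cause was not tested. Sex in the model, leaving out both libraries, and, for the comparison of the runs, no filter (alone or with 1 more choice) were chosen after seeing the data. Low genes are limited by depth, since 3 reads amount to 0.224 to 0.381 per M.

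The replicate numbers did not pair the libraries (same-number correlations 0.314, 0.0265, 0.0986 and 0.0792, and WT 2 and WT 4 but not WT 3 and WT 5 correlated best with the KO library of their own number). With the number as a replicate block 261 genes passed by label, among them Msln (log2 fold change 1.98, limma adjusted p = 0.00354), and Itgax (-0.20), Chil3 (-0.22), Mpeg1 (-0.0185) and Egfl7 (-0.0337) changed sign. KO 1 and WT 6 share their number with no library of the other group, so they do not enter that label difference. For Msln they were the lowest KO library (2.18 per M) and the highest WT library (8.68). The block result for Msln is therefore not one of all libraries.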
